A study of Mus musculus with 4 samples.

Results

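The 7 genes described here encode 2 small families of transcription factors: the orphan nuclear receptors Nr4a1, Nr4a2 and Nr4a3, and the Krüppel-like zinc finger factors Klf2, Klf4, Klf6 and Klf10. All 7 were found by symbol among the 32285 genes of the feature tables. The set was selected on its UMIs (unique molecular identifiers, which count single RNA molecules) per cell class and library, so the levels and ratios below are descriptions and carry no test. Single-cell RNA-seq libraries (10x Genomics 3′ chemistry) came from the brains of C57BL/6N mice, all male and 10 months of age. One group had sham surgery and isotype control antibody, and the other 3 had dMCAO stroke surgery followed by an isotype control antibody, an antibody to VCAM1 (anti-VCAM1) or an antibody to VLA4 (anti-VLA4). Every group, sham included, was given its antibody for 10 weeks. The dMCAO operation blocks a distal branch of the middle cerebral artery. VCAM1 is an adhesion molecule of activated endothelium, and VLA4 is the leukocyte integrin that binds it. The lesion core and the cortex within about 2 mm of it were dissected, the label "infarct core" being given to the sham tissue too, and cells were stained for CD31, CD45 and viability. Which stained fraction was collected is not given in the sources used here. Each group was 1 library made from 4 to 5 pooled mice, so no difference between groups has a replicate check, and every interval below is a 95% interval for counting error only.

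NR4A receptors have no known dependence on a ligand and are set mainly by how much of them is made: their genes are immediate early genes, switched on within minutes by cAMP, calcium, growth factors or T cell receptor signals. KLF2 and KLF4 are known in endothelium as factors induced by laminar flow through MEKK3, MEK5, ERK5 and MEF2 factors, and they hold the vessel wall in a quiescent, anticoagulant state. KLF2 also holds T cells in quiescence and drives their exit from tissue, KLF6 and KLF10 are broadly expressed and inducible, and NR4A factors mark T cells that have recently met antigen.

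The genes lie, on GENCODE M21 of GRCm38, at chr15:101254269-101274795 (Nr4a1, ENSMUSG00000023034), chr2:57106830-57124003 (Nr4a2, ENSMUSG00000026826), chr4:48045153-48086447 (Nr4a3, ENSMUSG00000028341), chr8:72319033-72321656 (Klf2, ENSMUSG00000055148), chr4:55527143-55532466 (Klf4, ENSMUSG00000003032), chr13:5861482-5870394 (Klf6, ENSMUSG00000000078) and chr15:38291463-38300706 (Klf10, ENSMUSG00000037465). RefSeq promoter windows (GRCm38.p6, 250 bases before to 50 after the transcript start) were found for 6 of the 7 genes. All 3 Nr4a windows held 4 copies of the cAMP response element half-site TGACG, read on both strands, a number that 0.231% of 32851 windows of the same length reached. The Nr4a windows are shown for these half-sites and the Klf2 window for a match to the MEF2 core motif, present in 3.69% of windows. Bases run 5′ to 3′ along the gene's own strand up to the next exon annotated in GENCODE M21, and capitals mark every match to a searched motif. The positions are chr15:101266596-101266845 (plus strand) for Nr4a1, chr2:57124004-57124253 (minus strand) for Nr4a2, chr4:48045055-48045152 (plus strand) for Nr4a3 and chr8:72318812-72319032 (plus strand) for Klf2. The RefSeq start used for Nr4a1 is an internal one: its window lies inside the GENCODE gene, downstream of the outermost annotated start.
Nr4a1: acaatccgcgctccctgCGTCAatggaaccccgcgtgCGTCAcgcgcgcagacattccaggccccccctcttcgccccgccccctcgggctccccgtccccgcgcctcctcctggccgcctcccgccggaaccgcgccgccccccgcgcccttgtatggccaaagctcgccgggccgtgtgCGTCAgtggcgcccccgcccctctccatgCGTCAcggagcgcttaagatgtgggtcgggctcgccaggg
Nr4a2: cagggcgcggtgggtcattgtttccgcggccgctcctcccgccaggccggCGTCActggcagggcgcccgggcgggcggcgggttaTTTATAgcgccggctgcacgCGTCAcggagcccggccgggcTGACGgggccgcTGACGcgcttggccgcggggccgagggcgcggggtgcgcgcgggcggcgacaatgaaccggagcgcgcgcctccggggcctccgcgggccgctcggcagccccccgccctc
Nr4a3: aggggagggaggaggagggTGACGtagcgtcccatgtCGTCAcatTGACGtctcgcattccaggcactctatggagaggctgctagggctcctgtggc
Klf2: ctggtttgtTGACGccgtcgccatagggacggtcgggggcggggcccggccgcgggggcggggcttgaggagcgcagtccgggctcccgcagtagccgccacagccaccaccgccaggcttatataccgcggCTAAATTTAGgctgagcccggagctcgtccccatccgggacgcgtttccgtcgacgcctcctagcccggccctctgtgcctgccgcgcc
The capitals in Nr4a2 include TTTATA, the TATA box motif TATAAA read from the other strand, which 13.6% of windows held. The window of Nr4a3 had its last half-site inside an annotated exon, which is not printed. Single half-sites lay 241 bases before the start of Klf2 and 232 bases before the start of Klf4, the window of Klf6 held none of the motifs, and TGACG itself was present in 20.8% of windows. The full element TGACGTCA (1.79% of windows), the NR4A monomer site AAAGGTCA (1.51%), the KLF box CCACACCC (3.56%) and the AP-1 site TGANTCA (7.81%) were in none of the 6 windows. These matches describe letters only, and the libraries hold no measure of binding.

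The libraries held 1541 to 6361 barcodes and between 10008987 and 34721356 UMIs, and 1516 to 6209 cells were kept, with medians of 4516.5 to 5466 UMIs per cell. Cells fell into 23 clusters, which were named "-like" after cell types from fixed marker lists, with the 7 genes left out of the clustering. Endothelial-like cells (6612, in 7 clusters) carried 36020 to 41326 UMIs of the 10 endothelial markers per 1000000 UMIs in each library, and microglia-like cells (6452, in 7 clusters) 16018 to 16870 of the 10 microglial markers. T cell-like cells numbered 636 and border macrophage-like cells 467, and these 4 classes alone had at least 50 cells in every library. The sham and stroke isotype libraries shared 59 barcodes, 55 of them with the lower copy in the stroke isotype library, at a median of 3.16% of the UMIs of the higher copy. Lower copies held 0.0837% to 0.382% of a library's kept UMIs. Without them, all 84 ratios of the 7 genes in these classes moved by less than their counting intervals.

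Each gene had its own order of classes, given here as CPM (UMIs of the gene per 1000000 UMIs of the class in that library). Klf2 was highest in endothelial-like cells in every library, at 2128 CPM (sham), 1890 (stroke isotype), 2595 (stroke under anti-VCAM1) and 2558 (stroke under anti-VLA4). Pericyte-like cells came next at 1151 to 1186 CPM in the 2 libraries with at least 20 of them, and T cell-like cells were low at 104 to 156 CPM. Klf4 had the same leading pair, with 1046, 820, 966 and 983 CPM in endothelial-like cells in the same order of libraries and 498 to 542 in pericyte-like cells, and was 17.3 to 28.4 CPM in T cell-like cells. In both genes the endothelial range lay above that of every other class, including monocyte or neutrophil-like cells, whose 2 libraries with at least 20 cells gave 533 to 920 CPM of Klf2 and 284 to 303 of Klf4. A cluster with both pericyte and endothelial markers, left unnamed, had 2592 CPM of Klf2 over all libraries.

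Klf6, a widely expressed factor, differed least between the 4 main classes. Border macrophage-like cells led with 673, 541, 492 and 506 CPM, clear of the endothelial-like range of 388 to 475. The ranges of endothelial-like, microglia-like (318 to 475 CPM) and T cell-like cells (305 to 468 CPM) overlapped. Klf10, a factor induced by TGF-beta, was highest in monocyte or neutrophil-like cells at 101 to 105 CPM. Endothelial-like cells followed at 77.4, 94.0, 99.4 and 98.8 CPM, and their range overlapped the 58.7 to 93.7 CPM of border macrophage-like cells.

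The NR4A genes peaked in leukocytes. Nr4a1 was highest in monocyte or neutrophil-like cells at 555 to 629 CPM in 2 libraries. Dendritic-like cells at 211 to 326 and border macrophage-like cells at 157 to 229 CPM followed with overlapping ranges, while microglia-like cells had 50.5 to 66.8 and endothelial-like cells 44.9 to 71.0. Nr4a2 was highest in T cell-like cells at 328, 283, 192 and 316 CPM, with dendritic-like cells overlapping at 109 to 199. Endothelial-like cells gave 37.1 to 85.4 CPM of Nr4a2 and microglia-like cells 2.68 to 5.58. Nr4a3 was carried by dendritic-like cells (179 to 458 CPM) and T cell-like cells (87.6 to 347 CPM), with overlapping ranges, and was under 10 CPM in endothelial-like and microglia-like cells of every library. Free RNA was not measured for these genes themselves. A UMI of Nr4a2 was found in 2.02%, 2.22%, 1.43% and 1.79% of microglia-like cells, against 2.75%, 1.15%, 4.68% and 4.19% for the endothelial junction gene Cldn5 in the same cells (median depths 5196.5 to 7341.5 UMIs). Nr4a3 was found in 1.14% to 2.19% of endothelial-like cells, against 2.74% to 4.73% for the microglial gene P2ry12 there. Its UMIs were uneven across endothelial-like clusters, with 10.2 CPM in cluster 8 over all libraries and 1.15 to 4.19 in the other 6.

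**Figure D1:**
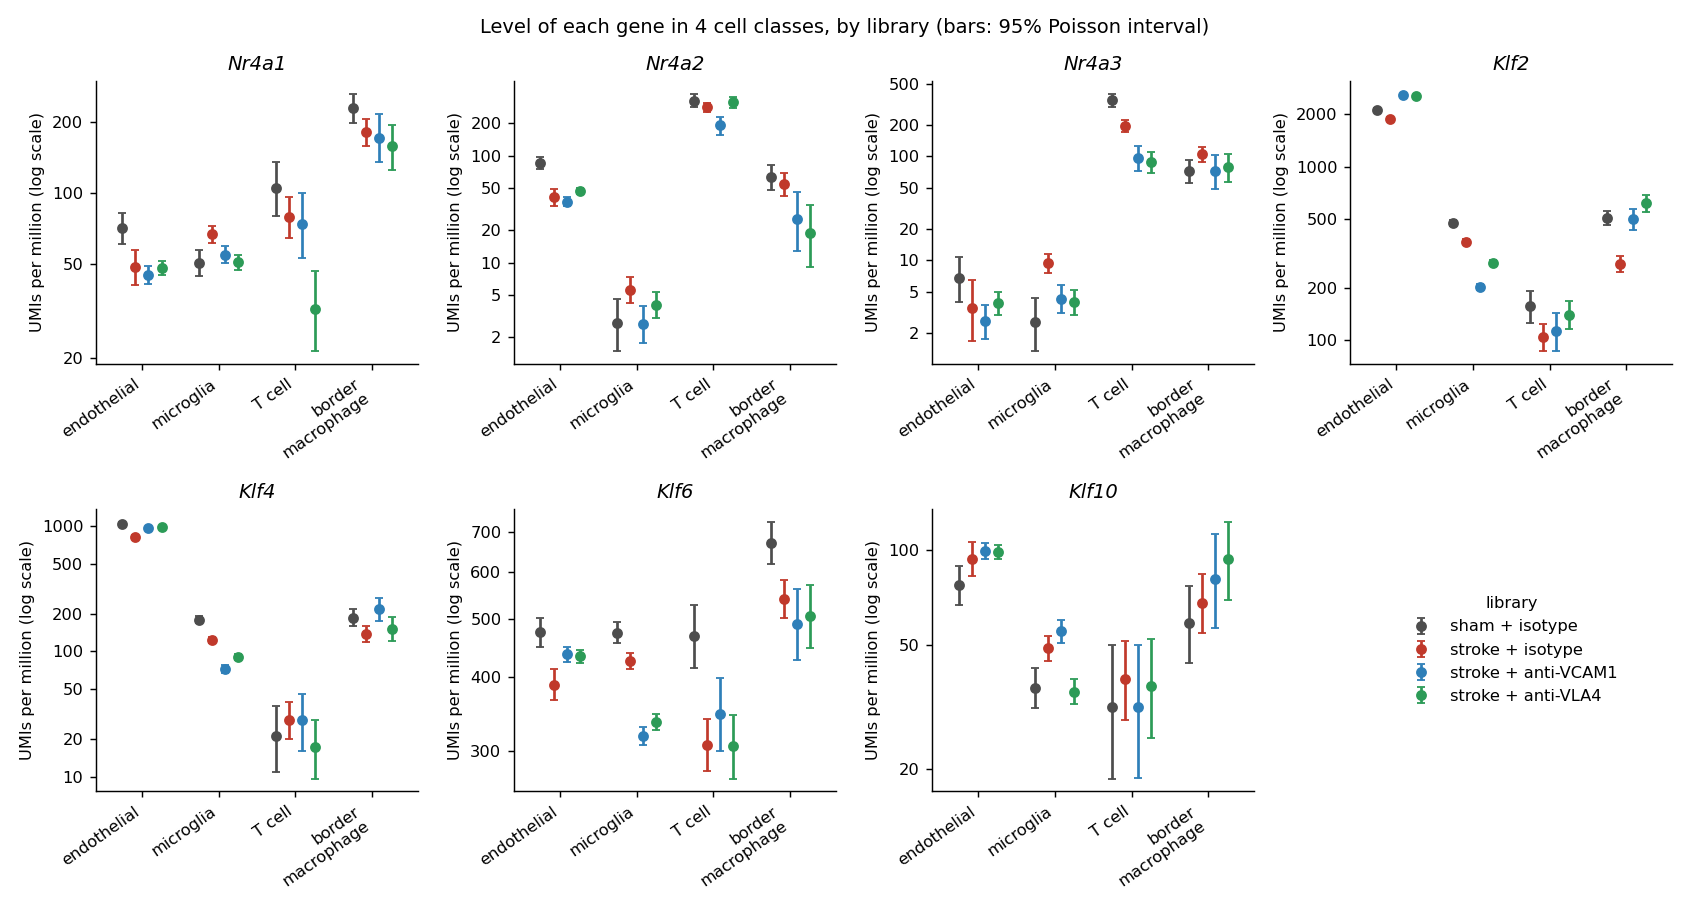
CPM (log scale) of each gene in 4 cell classes, with 1 point per library and bars for the 95% Poisson interval. Klf2 and Klf4 stand highest in endothelial-like cells, Nr4a2 and Nr4a3 in T cell-like cells, and the Nr4a3 points of T cell-like cells run from 347 in the sham library to 87.6 in the anti-VLA4 library.

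Within the endothelium, Nr4a1 and Nr4a2 were highest in clusters 6 and 8. Cluster 8, led by Cdh13, Gkn3, Vegfc and Bmx, had 6 markers of the arterial list above the other endothelial-like clusters. Cluster 6, led by Stmn2, Lypd1, Alpl and Hey1, shared the leading genes Gkn3, Sema3g and Bmx with cluster 8. Against the other endothelial-like clusters, cluster 8 among them, it had 1 arterial marker and was not named arterial. Clusters 6 and 8 held the most Nr4a1, at 73.5 and 93.2 CPM pooled over libraries, against 22.5 to 46.7 in the other 5 clusters. They also held the most Nr4a2 (58.3 and 87.8 against 22.8 to 38.8). Klf2 was highest in cluster 6 at 3594 CPM and in cluster 4 at 3158, and lowest in cluster 3 at 1509. Cluster 4 carried the least Malat1, a nuclear RNA, at 4843 CPM against 12446 to 32296 in the other endothelial-like clusters. Klf4 ranged less, from 715 to 1192 CPM, with cluster 6 highest. Klf10 spanned only 78.4 to 107 CPM. Libraries filled these clusters unequally: cluster 3 held 44.2% and 33.3% of endothelial-like cells in the sham and stroke isotype libraries but 16.1% and 14.8% in the anti-VCAM1 and anti-VLA4 libraries. Cluster 4 went the other way, with 6.0%, 9.5%, 22.5% and 21.7%.

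Microglia-like clusters split into high and low ones. Clusters 0 and 7 had 501 and 420 CPM of Klf2, 148 and 220 of Klf4 and 515 and 536 of Klf6. The cytokine gene Il1a was among the leading genes of both, and also of clusters 12 and 21 (74.4 and 66.8 CPM of Klf4). Clusters 1 and 5 had 77.2 and 101 CPM of Klf2, 35.6 and 72.1 of Klf4 and 186 and 219 of Klf6. Cluster 12, led by Hcar2, Gpr84, Trem2 and Cst7, the last pair known from disease-associated microglia, lay between them for Klf2 at 260 CPM and held the most Nr4a2 of the class (12.3 CPM, 38 UMIs). Cluster 0 made up 45.5%, 38.1%, 30.6% and 20.8% of microglia-like cells across the sham, stroke isotype, anti-VCAM1 and anti-VLA4 libraries, and cluster 1 18.8%, 18.3%, 28.4% and 37.4%.

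Klf2 and Klf4 followed each other across the 22 clusters with at least 50 cells (Pearson r = 0.92 of log2 CPM, pooled over libraries that differ in depth), and Klf4 with Klf10 gave 0.75. Among NR4A genes the values were 0.64 for Nr4a1 with Nr4a3 and for Nr4a2 with Nr4a3, and 0.42 for Nr4a1 with Nr4a2. The genes most like Klf4 were Dusp3 (0.96), App (0.96) and Tmem88 (0.96), and those most like Klf2 were Gstm7 (0.94), Mindy1 (0.93) and Sertad1 (0.93). Nr4a1 was most like the microRNA host gene Mir22hg (0.95), Nr4a2 like Ccnd2 (0.90) and Nr4a3 like Stat4 (0.88). Klf6 was most like Rassf1 (0.93) and Klf10 like Midn (0.90).

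The first comparison sets the stroke isotype library against the sham isotype library, late after stroke. In endothelial-like cells Nr4a2, a CREB-responsive immediate early receptor, was at 85.4 CPM (interval 74.3 to 97.6) in the sham library and 40.7 (33.6 to 48.8) in the stroke library, 2.07-fold lower. It was lower in all 4 clusters with at least 50 cells in both libraries, by log2 ratios from -1.91 to -1.01, with 3 of the 4 intervals off 0. Nr4a1 was at 71.0 and 48.4 CPM, a log2 ratio of -0.54 (-0.88 to -0.22). Without clusters 6 and 8 that ratio was -0.34. Klf4 went from 1046 to 820 CPM, a log2 ratio of -0.35 (-0.43 to -0.27), and was lower in 4 of 4 clusters. Klf6 had a ratio of -0.29 (-0.41 to -0.17), Klf2 one of -0.17 (-0.23 to -0.12), and Klf10 was on the other side at 0.28 (0.01 to 0.55). For Nr4a3, with 17 and 10 UMIs, the interval held 0.

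By the call used throughout, a ratio of at least 1.5-fold with an interval off 0 and at least 20 UMIs over both libraries, 1 of the 7 genes passed in this comparison (Nr4a2, lower). Of 10633 measurable genes 5.32% passed, 2.92% as higher and 2.4% as lower in this class, and nothing about the set is read from 1 gene. With each cell thinned to 1000 UMIs, no member passed and Nr4a2 had a log2 ratio of -0.65. The ratio of Nr4a2 lay above that of 0.536% of measurable genes, a rank among values the set was selected on and no test. Of 13 measurable AP-1 and EGR genes, which share immediate early induction with the NR4A genes, 4 passed as lower (Fos, Fosb, Fosl2 and Egr1) and none as higher, with a median log2 ratio of -0.38 against -0.02 over all genes. Fos was at 285 CPM in the sham and 181 in the stroke library. Of 21 genes known to respond to tissue dissociation, 4 were lower (Dusp1, Zfp36, Socs3 and Ppp1r15a), with a median of -0.14. Their part in the Nr4a2 result was not tested. Among 21 genes that feed NR4A or KLF transcription (MEKK3 and MEK5 kinases, MEF2 and CREB factors, the CCM complex, which restrains MEKK3), none passed. Of 12 other KLF and SP family genes 1 passed (Sp2, higher). Of 12 measurable targets of KLF2 and KLF4 in endothelium, 2 were higher (Ptgds, Angpt2) and 1 was lower (Adamts1, at 195 and 126 CPM). Thbd, thrombomodulin, was at 168 and 127 CPM.

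In microglia-like cells the NR4A ratios lay on the other side of 0, a difference between classes that was not tested. Nr4a1 was at 50.5 CPM (44.6 to 57.1) in the sham and 66.8 (61.6 to 72.2) in the stroke library, a log2 ratio of 0.40 (0.19 to 0.62), and lay above that of 93.3% of measurable genes. Clusters differed in sign: the log2 ratio was 0.72 (0.45 to 1.02) in cluster 0 and 0.28 (-0.20 to 0.78) in cluster 7, but -0.74 (-1.49 to -0.04) in cluster 1 and -1.93 (-3.29 to -0.79) in cluster 5. Nr4a3 had 13 UMIs and 2.54 CPM in the sham library and 87 UMIs and 9.34 CPM in the stroke library, a log2 ratio of 1.55 (1.03 to 2.85). The 87 UMIs came from 42 of 1484 cells, and 10 cells held 58.6% of them. Nr4a2 had 14 and 52 UMIs, a log2 ratio of 0.82 (0.16 to 2.00), with 13 of the 52 in 1 cell. Without the highest cell of each library its ratio was 0.55 with an interval that held 0, and with thinned cells it was -0.50. In the stroke library a UMI of Nr4a2 was in 2.22% and of Nr4a3 in 2.83% of these cells, and one of the endothelial genes Cldn5 and Flt1 in 1.15% and 2.83%. The part of free RNA in either ratio was not tested. The UMIs of Nr4a3 were spread unequally. The stroke library had 39 in the 566 cells of cluster 0 and 0 in the 272 of cluster 1. Over all libraries the level was 16.2 CPM in cluster 12, 12.8 in cluster 7 and 0.08 in cluster 1.

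Klf4 was the KLF gene with the largest difference in microglia-like cells, at 179 CPM in the sham and 124 in the stroke library, a log2 ratio of -0.53 (-0.66 to -0.41), lower in 4 of 4 clusters. Klf2 had 474 and 369 CPM, a ratio of -0.36 (-0.44 to -0.29), and Klf6 475 and 425, a ratio of -0.16. Klf10 was higher in 4 of 4 clusters, with 36.5 and 48.7 CPM and a ratio of 0.41 (0.17 to 0.67). The 2 of 7 members that passed (Nr4a2 and Nr4a3, higher) are set against 4.46% of 12200 genes, 2.3% higher and 2.16% lower. Both rest on few cells, and neither passed with cells thinned to 1000 UMIs. None of 14 measurable AP-1 and EGR genes passed, with a median of -0.33 against -0.04 over all genes. Egr1 was at 1091 and 736 CPM. Among dissociation genes the heat shock genes Hspa1a, Hspa1b and Hspb1 were higher and Zfp36 lower.

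**Figure D2:**
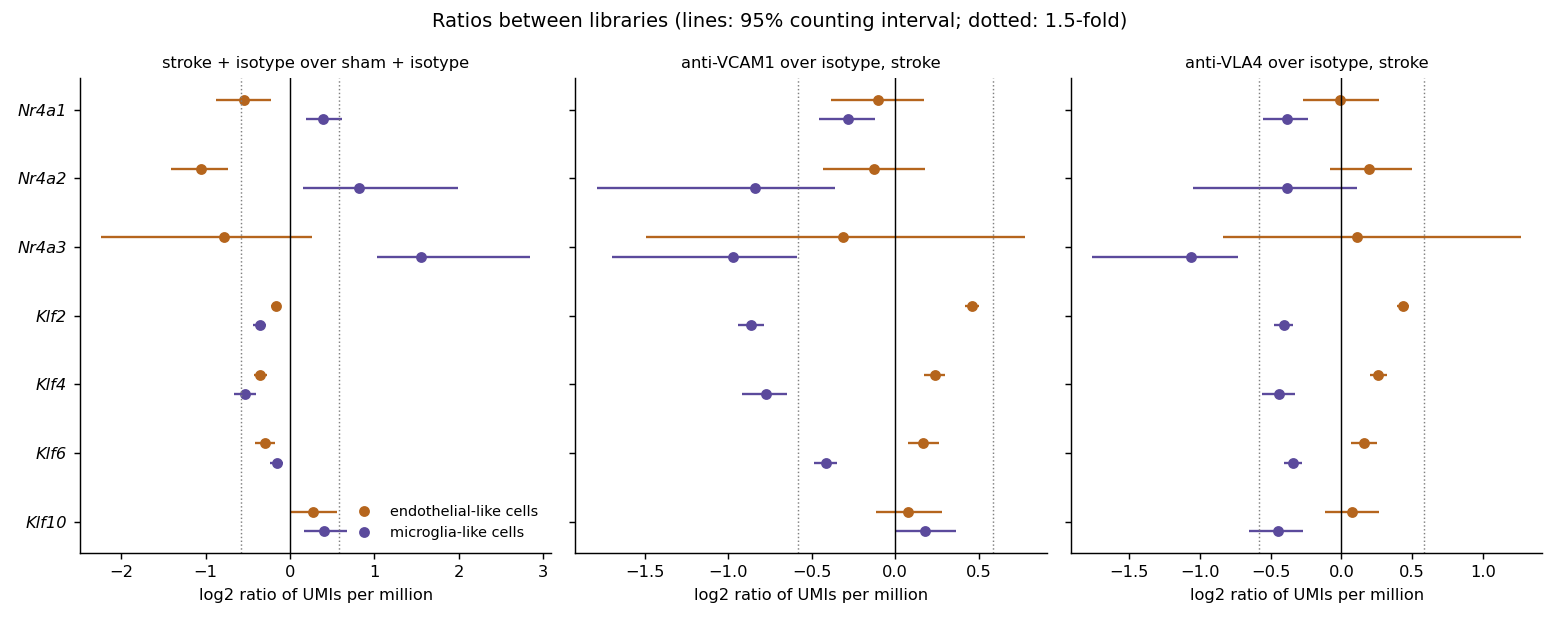
Log2 ratio of CPM between 2 libraries for each gene in endothelial-like and microglia-like cells, with lines for the 95% counting interval and dotted lines at 1.5-fold. In the stroke comparison Nr4a1 and Nr4a2 lie on opposite sides of 0 in the 2 classes, and in both antibody comparisons Klf2, Klf4 and Klf6 do.

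The next comparisons set each antibody library against the stroke isotype library, which both share. In endothelial-like cells Klf2, Klf4 and Klf6 lay above the isotype library under either antibody, with intervals off 0 but under 1.5-fold. Over the whole class no NR4A gene had an interval off 0. Klf2 was at 1890 CPM (1839 to 1941) with isotype, at 2595 (2565 to 2624) when VCAM1 was blocked and at 2558 (2533 to 2583) when VLA4 was blocked. The log2 ratios were 0.46 and 0.44. Both antibody libraries also lay above the 2128 CPM of the sham library. A UMI of Klf2 was present in 70.5% of isotype cells, 82.4% of anti-VCAM1 cells and 81.8% of anti-VLA4 cells after thinning to 1000 UMIs (89.5%, 94.6% and 95.9% unthinned), against 5.56% to 8.33% of T cell-like cells. Klf2 was higher in 5 of 6 clusters under either antibody, by at most 0.33 (anti-VCAM1) and 0.41 (anti-VLA4), which is less than over the whole class. The exception was cluster 10, at -0.15 and -0.09.

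Klf4 had log2 ratios of 0.23 (0.17 to 0.30) under anti-VCAM1 antibody and 0.26 (0.20 to 0.32) under anti-VLA4 in endothelial-like cells, and was higher in 3 of 6 clusters in each. The ratios of Klf6 were 0.17 (0.07 to 0.26) and 0.16 (0.07 to 0.25). Klf2, Klf4 and Klf6 span only 2624, 5324 and 8913 bases, and ratios over all genes followed span. With the trend of ratio on gene span removed, those of Klf4 were 0.01 and 0.03, those of Klf6 -0.03 and -0.02, and those of Klf2 0.18 and 0.17. Over the class, the intervals of Klf10, Nr4a1, Nr4a2 and Nr4a3 held 0 in both comparisons. Nr4a2 stayed at 37.1 CPM (33.7 to 40.8) and 46.8 (43.5 to 50.3), with intervals of the log2 ratio from -0.43 to 0.18 and from -0.08 to 0.50. Within clusters, Nr4a1 was lower in cluster 6, at -0.99 (-1.55 to -0.42) and -1.05 (-1.59 to -0.49). It was higher in 2 of 6 clusters in each comparison. Klf10 was higher in 3 of 6 clusters in each, with intervals off 0 only in cluster 2 (0.71 and 0.63). Nr4a2 had an interval off 0 only in cluster 2 with anti-VLA4 (0.83, 0.08 to 1.76).

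None of the 7 genes passed the call in endothelial-like cells with either antibody, where 7.73% of 11857 genes (anti-VCAM1, 1.29% higher and 6.44% lower) and 9.06% of 12168 genes (anti-VLA4, 1.45% higher and 7.61% lower) did. Klf2 passed with cells thinned to 1000 UMIs (0.61 and 0.59) and with TMM scaling (0.60 and 0.59). Of 12 other KLF and SP family genes, none was higher in either comparison. Klf8, Klf12 and Sp2 were lower with anti-VCAM1, and Klf8 and Klf12 with anti-VLA4. Klf12, a repressor with a long gene, was at 676, 433 and 411 CPM in the isotype, anti-VCAM1 and anti-VLA4 libraries. Of the 21 upstream genes, Map2k5 (the kinase MEK5, 79.7, 51.5 and 47.8 CPM) and Crtc1 were lower in both, and Heg1, the endothelial receptor that anchors the CCM complex, at 704, 502 and 468 CPM, passed with anti-VLA4. The 13 measurable KLF2 and KLF4 targets gave no gene higher and only Ptgds lower in either comparison. Nos3, the endothelial nitric oxide synthase, was at 226, 190 and 181 CPM, and Tek, the angiopoietin receptor, at 582, 467 and 443. Among dissociation genes, 20 of 21 had ratios above 0 in each comparison, with medians of 0.35 and 0.42 against -0.07 and -0.09 over all genes. Dnaja1, Cebpb and Cebpd passed as higher with anti-VCAM1, and Hspa1a, Dnaja1, Dnajb1, Socs3 and Cebpd with anti-VLA4. Of 13 measurable AP-1 and EGR genes, 6 and 7 had ratios above 0, with medians of -0.06 and 0.02. Fos and Fosb passed as lower in both comparisons. With anti-VLA4 Egr3 was also lower and Ier3 higher (146 CPM with isotype and 235 with anti-VLA4). The part of these in the Klf2 values was not tested.

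**Figure D3:**
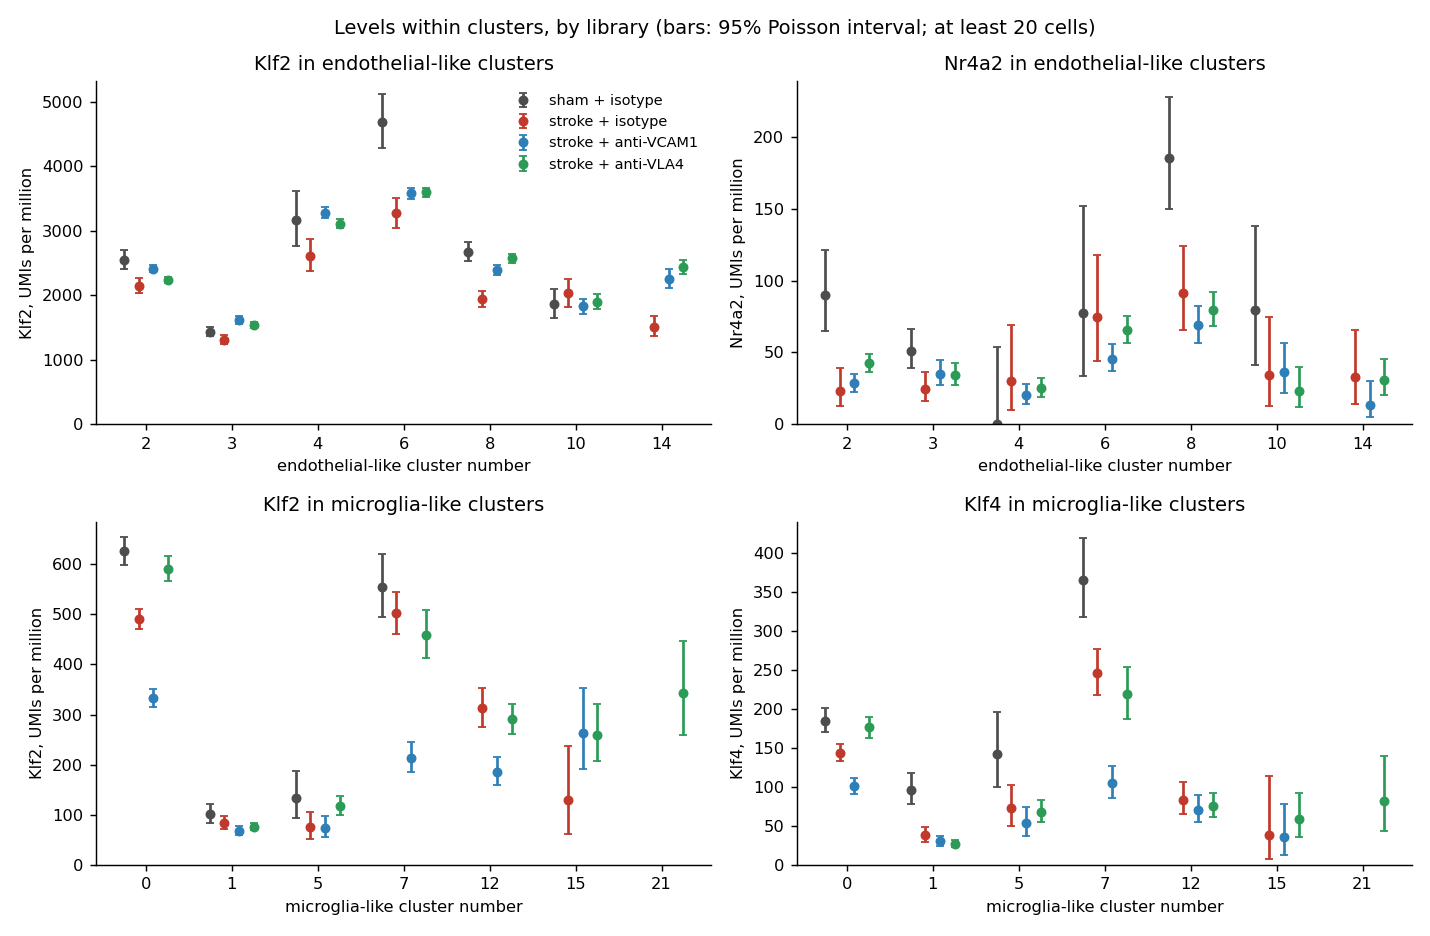
Klf2 and Nr4a2 in endothelial-like clusters (upper row) and Klf2 and Klf4 in microglia-like clusters (lower row), as CPM by library with 95% Poisson intervals, for at least 20 cells. In microglia-like clusters 0 and 7 the anti-VCAM1 points of Klf2 (333 and 213) lie below those of the other 3 libraries.

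In microglia-like cells the same 3 genes lay below the isotype library under either antibody. Klf2 was at 369 CPM (357 to 381) with isotype, 203 (194 to 212) under anti-VCAM1 antibody and 278 (269 to 287) under anti-VLA4. The sham library had 474. The log2 ratios were -0.86 (-0.94 to -0.78) and -0.41 (-0.47 to -0.34). Klf4 had 124, 71.8 and 90.8 CPM, ratios of -0.77 (-0.92 to -0.65) and -0.44 (-0.56 to -0.33). Klf6 had 425, 318 and 336 CPM, ratios of -0.42 and -0.34. After thinning, 21.3%, 13.1% and 15.7% of microglia-like cells had a Klf2 UMI (41.5%, 27.8% and 32.1% unthinned). Cldn5 was in 0.208%, 1.12% and 0.867% of the thinned cells. The part of free RNA in the Klf2 values was not tested.

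Within clusters the 2 comparisons gave different values, which were not tested against each other. With anti-VCAM1, Klf2, Klf4 and Klf6 were lower in 5 of 5 clusters, with 3, 2 and 5 intervals off 0. With cluster shares held fixed, the same in both libraries, their ratios were -0.63, -0.57 and -0.26. Cluster 7 had the largest difference in Klf2, with 502 and 213 CPM of Klf2 and a log2 ratio of -1.23. With anti-VLA4, cluster 0 had more Klf2 (490 and 591 CPM, ratio 0.27) and more Klf4 (ratio 0.30), and cluster 7 was at 502 and 459 CPM of Klf2. With cluster shares held fixed in the same way, the anti-VLA4 ratios of Klf2, Klf4 and Klf6 turned to 0.17, 0.09 and 0.05. The anti-VLA4 library held fewer cells of clusters 0 and 7 (20.8% and 9.8% of the class, against 38.1% and 22.2% with isotype). Of the 5 clusters compared, Klf2 was higher in 2, and Klf4 and Klf6 in 1 each. The part of the cluster mix in the lower class levels was not tested.

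Klf10 in microglia-like cells was at 48.7 CPM (44.4 to 53.4) with isotype, 55.2 (50.7 to 60.0) under anti-VCAM1 antibody and 35.4 (32.3 to 38.7) under anti-VLA4. The anti-VLA4 interval lies below the other 2. Nr4a1 was at 66.8, 54.7 and 50.8 CPM, ratios of -0.28 and -0.39, and was higher in 3 of 5 clusters in each comparison. With anti-VCAM1 its ratio was -0.42 (-0.66 to -0.18) in cluster 0 and 0.78 (0.24 to 1.40) in cluster 1. Nr4a3 had 9.34, 4.26 and 3.96 CPM from 87, 43 and 53 UMIs, ratios of -0.97 and -1.06, and Nr4a2 5.58, 2.68 and 4.03 CPM.

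Of the 7 genes, 4 passed with anti-VCAM1 (Nr4a2, Nr4a3, Klf2 and Klf4, all lower), where 3.25% of 12689 genes did, 1.77% higher and 1.47% lower. With anti-VLA4 1 passed (Nr4a3, lower), where 4.54% of 12936 did, 2.02% higher and 2.52% lower. Nr4a2 did not pass without the highest cell of each library (-0.58) and Klf4 not with cluster shares held fixed. Nr4a3 did not pass with anti-VLA4 at fixed cluster shares (-0.52), nor in either antibody comparison with thinned cells. Among AP-1 and EGR genes, Fos, Fosb and Egr2 were lower with anti-VCAM1 and 8 of 14 with anti-VLA4 (Fos, Fosb, Egr1, Egr2, Egr3, Atf3, Ier2 and Ier3), with medians of -0.32 and -0.79. Egr1 was at 736 CPM with isotype and 308 with anti-VLA4, and Fosb at 280 with isotype and 123 with anti-VCAM1. Of the other 11 measurable KLF and SP genes only Klf16 passed, lower with anti-VLA4. Among 21 dissociation genes, Hspb1 and Dnajb1 were lower with anti-VCAM1, and Dusp1, Nfkbia and Gadd45b with anti-VLA4. The medians were -0.16 and -0.24, and their part in the KLF values was not tested.

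T cell-like cells numbered 73, 249, 112 and 202 in the 4 libraries. Nr4a3 was at 347 CPM (300 to 399) in the sham library, 197 (173 to 223) with stroke and isotype, 96.8 (72.9 to 126) under anti-VCAM1 antibody and 87.6 (69.0 to 110) under anti-VLA4. The sham and isotype intervals stand apart from each other and from both antibody libraries, whose intervals overlap. After thinning, 26.4%, 15.2%, 7.41% and 4.08% of cells had a UMI of Nr4a3, against 0.223% to 0.693% of microglia-like cells. Nr4a1 was at 105, 79.0, 73.9 and 32.3 CPM, with the anti-VLA4 interval (21.4 to 46.6) below the other 3. Nr4a2 was at 328, 283, 192 and 316 CPM, lowest with anti-VCAM1. The share of thinned cells with a UMI of any NR4A gene was 52.8%, 29.6%, 20.4% and 16.8%. T cell-like cells are 1 cluster here, so a different mix of T cells and a different level per cell could not be separated.

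**Figure D4:**
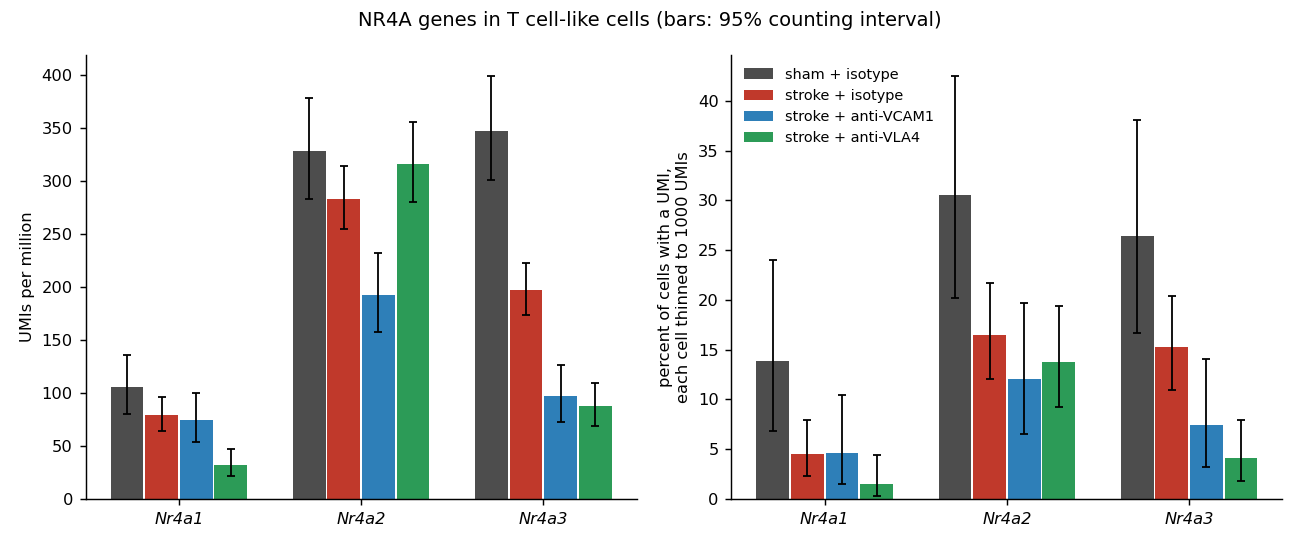
NR4A genes in T cell-like cells by library: CPM (left) and the percent of cells with a UMI after each cell was thinned to 1000 UMIs (right), with 95% counting intervals. Nr4a3 is highest in the sham library and lowest in the antibody libraries on both scales.

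Klf2, the quiescence factor of T cells, was at 156, 104, 113 and 139 CPM, and Klf6 at 468, 307, 347 and 305. In the stroke comparison Nr4a3, Klf2 and Klf6 passed as lower (log2 ratios -0.82, -0.59 and -0.60), where 16.7% of 8210 genes passed, 3.78% as higher and 12.9% as lower. Klf2 and Klf6 did not pass with TMM scaling (-0.41 and -0.42), nor without cells holding a UMI of Cldn5, Flt1, P2ry12 or Tmem119 (-0.17 and -0.40). Microglial P2ry12 was at 394 CPM in the sham T cell-like cells and 39.2 to 234 in the other libraries. With anti-VCAM1, 1 member passed (Nr4a3, -1.02), against 9.37% of 8036 genes, 4.67% higher and 4.7% lower. With anti-VLA4 2 passed (Nr4a1, -1.27, and Nr4a3, -1.16), against 10.7% of 8382 genes, 2.93% higher and 7.79% lower. With thinned cells Nr4a3 did not pass with anti-VCAM1 (-0.67), nor Nr4a1 with anti-VLA4. Of the KLF2 target genes in T cells, Il7r, the IL-7 receptor, was at 256 CPM in the sham and higher in the stroke isotype library at 484, and S1pr1 passed as higher there. None of these 7 KLF2 target genes passed in either antibody comparison. Of 11 measurable genes that accompany NR4A in stimulated T cells, 2 passed as higher with stroke (the checkpoint receptors Tigit and Ctla4) and 3 as lower (Lag3, Entpd1 and Bcl6), with a median log2 ratio of -0.17 against -0.10 over all genes. Ctla4 was at 103 CPM in the sham and 321 in the stroke isotype library, and Entpd1, an ectonucleotidase, at 349 and 211. With anti-VCAM1 Havcr2 and Lag3 passed as higher and Tox, Ctla4 and Irf4 as lower (median 0.15), and with anti-VLA4 Ctla4 and Entpd1 as lower and none as higher (median -0.20). The ratios of Ctla4 were -1.55 and -1.23. Tox, a factor of chronically stimulated T cells, was at 1027 CPM with isotype and had a ratio of -0.61 with anti-VCAM1. The 10 microglial markers summed to 3540, 1105, 2244 and 493 CPM in the T cell-like cells of the sham, isotype, anti-VCAM1 and anti-VLA4 libraries. Microglia-like cells of the stroke isotype library held 211 CPM of Lag3, 250 of Havcr2 and 107 of Bcl6. The part of microglial RNA in the T cell-like ratios was not tested.

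AP-1 and EGR genes in T cell-like cells were mostly lower in the stroke and anti-VLA4 comparisons, as were some members but not all. With stroke 2 of the 7 members had ratios above 0. With anti-VLA4 the members had a median of -0.07 against -0.05 over all genes, and Klf2 had a ratio of 0.43 (0.06 to 0.80). With stroke, all 11 measurable AP-1 and EGR genes had ratios below 0 and 5 passed as lower (Fosb, Jun, Jund, Egr1 and Ier5), with a median of -0.56. Egr1 was at 328 CPM in the sham and 87.7 in the stroke isotype library, and Jun at 1069 and 401. With anti-VLA4 6 of the 11 passed as lower (Fos, Fosb, Fosl2, Jun, Egr1 and Atf3; median -0.63). With anti-VCAM1 Atf3 and Ier5 passed as higher and Fosb and Fosl2 as lower (median 0.25). Among dissociation genes, Zfp36, Btg2, Socs3, Cebpb, Ppp1r15a and Rhob passed as lower with stroke and Hspa1b as higher. With anti-VCAM1 Zfp36, Socs3, Ppp1r15a and Rhob passed as higher and Hspa1b as lower, and with anti-VLA4 Hspb1 as higher and Gadd45b and Rhob as lower. Their part in the NR4A and KLF values was not tested. Microglial P2ry12 was at 394 CPM in the sham and 111 in the stroke isotype T cell-like cells. Microglia-like cells of these 2 libraries held 1091 and 736 CPM of Egr1, and 1044 and 669 of Zfp36. The part of microglial RNA in the AP-1, EGR and dissociation values of T cell-like cells was not tested.

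Border macrophage-like cells (116, 197, 63 and 91) had Klf2 at 504, 275, 496 and 613 CPM. The stroke isotype library was the lowest, with a log2 ratio of -0.87 (-1.08 to -0.67) against sham, and Klf2 was higher with anti-VCAM1 (0.85) and anti-VLA4 (1.15). Endothelial RNA was low in the sham and stroke isotype libraries and higher in both antibody libraries. Cldn5 was at 0, 1.55, 32.5 and 375 CPM and Flt1 at 21.9, 13.2, 90.4 and 506. Without cells holding a UMI of either gene (7.76%, 7.61%, 15.9% and 22.0% of the class), the anti-VLA4 ratio was 0.78 and the stroke and anti-VCAM1 ratios stayed within their intervals. Where cells took their class from their own marker UMIs and not from a cluster, the stroke and anti-VLA4 ratios were 0.02 and -0.36. Immediate early genes were lower in the stroke comparison too: all 13 measurable AP-1 and EGR genes had ratios below 0, with a median of -0.33, and Egr1 (1577 and 932 CPM), Ier2 and Ier3 passed. Of 20 dissociation genes Dusp1, Zfp36 and Cebpb passed as lower, and Hspa1a and Hspa1b as higher. No AP-1 or EGR gene passed with either antibody, and of the dissociation genes Cebpb was higher with anti-VCAM1 and Hspb1 with anti-VLA4. Their part in the Klf2 values was not tested. Klf4 was at 186, 138, 218 and 152 CPM and passed with anti-VCAM1 (0.66). Nr4a2 was at 63.3, 54.1, 25.5 and 18.7 CPM and passed as lower with both antibodies (-1.06 and -1.48), from 11 and 10 UMIs. Nr4a1 was at 229, 181, 172 and 157 CPM and Nr4a3 at 72.5, 104, 71.9 and 78.7, and neither passed. In all, 1 member passed in the stroke comparison, where 7.69% of 8462 genes did (3.26% higher, 4.43% lower). With anti-VCAM1 3 passed, against 8.26% of 7873 (4.17% higher, 4.09% lower), and with anti-VLA4 2, against 11.8% of 8094 (5.47% higher, 6.35% lower).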

How the data were processed

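Raw UMI counts per gene and barcode were used as deposited by the authors. The submitters' processing notes name Cell Ranger 6.0.0, Seurat 4.3.0.1 and the builds mm10 and GRCh38, without their roles, while per the file headers the matrices come from Cell Ranger 7.0.1; the difference could not be resolved. Each of the 4 libraries is a group of its own, so no test between groups was possible.

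Cells with at least 500 UMIs, 200 genes and at most 10% mitochondrial UMIs were kept, and doublets called by Scrublet (0.59% to 1.96% per library) were left out. Cells were clustered in scanpy 1.11.5 (2000 variable genes, 30 principal components, 15 neighbours, Leiden resolution 1) without 241 genes (the 7 members, the other listed genes, and mitochondrial, ribosomal protein and haemoglobin genes). A cluster took a cell type name from at least 3 of its markers, by a rule settled after the clusters were seen. UMIs of a class were added up within each library, and classes with at least 50 cells in every library gave log2 ratios of CPM with a pseudocount of 1. Intervals are exact Poisson for levels, conditional binomial for ratios and Clopper-Pearson for shares. Summed counts limit precision: the 7 genes had from 10 to 40417 UMIs in each of these classes and libraries. edgeR 4.0.16 was used only for TMM factors. The scripts were tested on simulated counts.

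The members and gene lists were chosen with earlier results of these data known. Named by rule were the 7 genes, up to 3 genes per list of largest ratio with at least 200 UMIs, and the 3 genes most like each member; other list genes past the call were named after their values were seen. Ratios were recomputed under 15 other settings, 4 of them chosen after seeing the data (without the lower copies of shared barcodes, without clusters 6 and 8, without cluster 4, and without cells holding RNA of another class).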

Additional observations from a re-analysis of the deposited data

Results flagged for a closer look

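In 8 instances the ratio of a gene lay on opposite sides of 0 in endothelial-like and microglia-like cells, with both counting intervals off 0. With 1 library per group, the difference between the classes was not tested. In the stroke comparison the log2 ratio of Nr4a1 was -0.5435 in endothelial-like and 0.3952 in microglia-like cells, and that of Nr4a2 was -1.051 and 0.8188. The microglial Nr4a2 value rests on 14 and 52 UMIs, and the microglial Nr4a1 ratio was 0.72 in cluster 0 but -0.74 and -1.93 in clusters 1 and 5.

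With anti-VCAM1, Klf2 had 0.4573 in endothelial-like and -0.861 in microglia-like cells, Klf4 0.235 and -0.7747, and Klf6 0.168 and -0.4172. With anti-VLA4, which shares the stroke isotype library, the pairs were 0.4366 and -0.406 for Klf2, 0.2608 and -0.4395 for Klf4, and 0.1575 and -0.3399 for Klf6. The microglial anti-VLA4 values of the last 3 turned above 0 when cluster shares were held fixed. The endothelial values of Klf6 in both comparisons turned below 0 with the trend on gene span removed.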

How the results depend on the processing

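No paired analysis was possible because each group is 1 library. Of the 84 ratios, 48 kept their sign under every alternative run for them. Scaling without mitochondrial, ribosomal and haemoglobin genes and Malat1, a pseudocount of 0.1 and leaving out the lower copies of shared barcodes moved none beyond its interval. Reversals are counted here only among ratios that had passed the call. Thinning cells to 1000 UMIs moved 27 and reversed 1 (Nr4a2 in microglia-like cells with stroke, -0.50), and it leaves fewer UMIs. Naming cells on their own markers moved 23 and reversed 2, Klf2 in border macrophage-like cells with stroke (0.024) and with anti-VLA4 (-0.36). The cause was not tested. Ratios that had not passed changed sign too. Examples with stroke are Nr4a3 in endothelial-like cells when thinned (0.31) and Klf6 in border macrophage-like cells named on their own markers (0.27). The count of members past 1.5-fold in endothelial-like cells with stroke, 1 as reported, was 2 with doublets kept, 0 with thinned cells and 2 with cluster shares fixed. With either antibody it was 0 as reported and 1 both with thinned cells and with TMM factors (Klf2 in each). In microglia-like cells with stroke it was 2 as reported. It was 1 with cells named on their own markers, with the stricter cell filter and at Leiden resolution 0.5. The same held without the highest cell and with cluster shares fixed. With thinned cells it was also 1, but Klf10 (0.79) passed and neither Nr4a2 nor Nr4a3 did. With anti-VCAM1 the count was 4 and went to 2 with thinned cells. With anti-VLA4 it was 1, and was 2 with cells named on their own markers and 0 with cluster shares fixed. With thinned cells Klf10 (-0.90) passed there in place of Nr4a3. Background shares of all genes with at least 200 UMIs were lower, for example 0.711% in microglia-like cells with anti-VCAM1. Depth limits members with few UMIs, such as Nr4a3 in endothelial-like cells with stroke (17 and 10) and Klf4 (12 and 36) and Klf10 (18 and 49) in T cell-like cells.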
